A study of Homo sapiens with 2 samples.

Results

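Complement is a blood-borne defence system, and the genes described here encode its components and regulators as they were read in HK-2 cells, an immortalised human line from the proximal tubule of the kidney. The group holds 30 genes, chosen by name among complement components, proteases, receptors and membrane or soluble regulators, and each matched 1 gene identifier among the 58302 in the deposited tables. RNA had been sequenced from a culture infected for 24 h with an adenovirus that carried the Bmal1 coding sequence (library labelled Ad-Bmal1) and from a culture infected for the same time with an adenovirus that carried green fluorescent protein (library labelled Ad-GFP). Both cultures were infected HK-2 cells grown in serum-containing medium, so neither library shows uninfected cells, and the labels do not give the species of the Bmal1 sequence, the vector's serotype or the dose. Each group is 1 library, which leaves every difference below without a check between cultures, and all intervals cover counting error only. In such bulk RNA, fewer cells of a type and less RNA per cell cannot be told apart. The labels spell out the HK-2 name differently for the libraries (human kidney 2 and human kidney 3), and they are treated here as 1 line. Gene positions are those of GENCODE v29 on GRCh38.

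Complement works as a chain of proteolytic steps. The classical pathway starts when C1q binds a target and its partner proteases C1r and C1s cleave C4 and C2, the lectin pathway starts with mannose-binding lectin, ficolins or collectins and the MASP proteases, and the alternative pathway turns over slowly through C3, factor B and factor D and is prolonged by properdin. All routes cleave C3, and the late components then assemble the membrane attack complex. Host cells protect themselves with the membrane proteins CD46, CD55 and CD59. The liver makes most plasma complement, while tubular epithelial cells of the kidney are known to make C3 and other components locally.

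The stretches upstream of the genes for CD46 and CD59 are shown because both are protective genes with lower counts in the library labelled Ad-Bmal1. CD55 is a further such gene, but its stretch (207321428 to 207321677) lies inside the gene as GENCODE v29 places it. It is therefore not shown, although it is counted in the promoter shares below. The CD59 stretch also reaches into its gene as GENCODE v29 places it (33703010 to 33736491), but only with the bases nearest the start. Each line gives the 250 bases before the annotated start in RefSeq (GRCh38.p14), at chr1:207751788-207752037 on the plus strand for CD46 and chr11:33736480-33736729 on the minus strand for CD59. Capitals mark matches to any of 6 motifs searched on both strands, which were the E-box CACGTG bound by CLOCK and BMAL1, the GC box GGGCGG, the CCAAT box CCAAT, the TATA box TATAAA, the STAT site TTCNNNGAA and an NF-kB-like site of GGG and TTCC with 3 free bases between them, and no match in these stretches overlapped another.
CD46 promoter: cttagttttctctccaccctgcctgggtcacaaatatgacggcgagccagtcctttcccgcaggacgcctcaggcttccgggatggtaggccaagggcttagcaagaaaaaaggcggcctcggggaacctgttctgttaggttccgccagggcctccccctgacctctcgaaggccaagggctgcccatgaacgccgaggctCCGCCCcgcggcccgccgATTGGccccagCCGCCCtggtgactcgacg
CD59 promoter: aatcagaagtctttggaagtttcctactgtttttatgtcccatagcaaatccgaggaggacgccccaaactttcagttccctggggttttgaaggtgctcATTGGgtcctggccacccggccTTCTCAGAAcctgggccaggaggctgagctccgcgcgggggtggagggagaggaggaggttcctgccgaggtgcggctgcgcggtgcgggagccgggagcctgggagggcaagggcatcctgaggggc

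CD46 held 2 GC boxes and 1 CCAAT box, all on the opposite strand and within 48 bases of the start. CD59 held 1 CCAAT box 146 to 150 bases before the start and 1 STAT site 120 to 128 bases before it. Neither stretch held CACGTG. RefSeq promoters were matched for 22 of the 30 genes, and among these CACGTG stood in 1, that of C2, against 6.34% of all 35116 promoters. GGGCGG stood in 5 of the 22 promoters against 42.6% of all, CCAAT in 6 against 32.0%, TATAAA in 3 against 10.7%, TTCNNNGAA in 4 against 6.57%, and the NF-kB-like site in 0 against 5.67%. Each of the 22 genes gave 1 promoter, while the 35116 were not reduced to 1 per gene, so the shares are of unlike units. These are matches of letters in a short window and describe no binding.

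Counts of human BMAL1 were read as a check of the labels. The check is limited, because the species of the vector's Bmal1 sequence is not given and its reads need not be among these counts. Exchanged labels and uncounted vector reads cannot be told apart here. BMAL1 (ENSG00000133794; chromosome 11, 13276652 to 13387266), a clock transcription factor, had 133 counts in the library labelled Ad-Bmal1 and 204 in the library labelled Ad-GFP, a ratio of scaled counts of 0.667 (95% counting interval 0.532 to 0.834). BMAL1 went against the label, so every direction below belongs to the library labelled Ad-Bmal1 and not to a shown excess of BMAL1. Depth was nearly equal, at 20051735 counts in the library labelled Ad-Bmal1 and 20032652 in the library labelled Ad-GFP. Of 5 epithelial markers 4 reached 1 CPM (1 count per 1000000 scaled counts), led by 19292 counts of the keratin gene KRT8 in the library labelled Ad-Bmal1 and 20712 in the library labelled Ad-GFP, while CDH1, the E-cadherin gene, had 4 counts in the library labelled Ad-Bmal1 and 1 in the library labelled Ad-GFP. Of 10 proximal tubule markers 2 reached 1 CPM, among them the enzyme gene GGT1, and LRP2, the endocytic receptor megalin, and SLC22A6, an organic anion transporter, were at 0 in both libraries.

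Of the 30 complement genes, 25 had a count and 12 reached 1 CPM in 1 or both libraries, which is about 20 reads. Of these 12, 10 reached it in both, while CFP passed through the library labelled Ad-GFP alone and C3AR1 through the library labelled Ad-Bmal1 alone. The 18 genes below that level made up 0.138% of all complement counts in the library labelled Ad-Bmal1 and 0.126% in the library labelled Ad-GFP. A gene was counted as differing if it reached 1 CPM, differed at least 2-fold and had a counting interval that left out 1. By that rule 0 of the 12 were higher, where 1.13% of all 13231 measured genes were higher, and 1 was lower, CFP, where 1.74% of all measured genes were (2.86% in either direction). With 1.5-fold in place of 2-fold, 0 of the 12 were higher, against 4.41% of all measured genes, and 3 were lower (CFP, CD46 and C1QTNF1), against 4.9%. Intervals lay above 1 for 3 of the 12, against 23.8% of all measured genes, and below 1 for 6, against 21.6%. The median log2 ratio of the 12 was -0.15, and that of all measured genes was 0.00315.

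**Figure D1:**
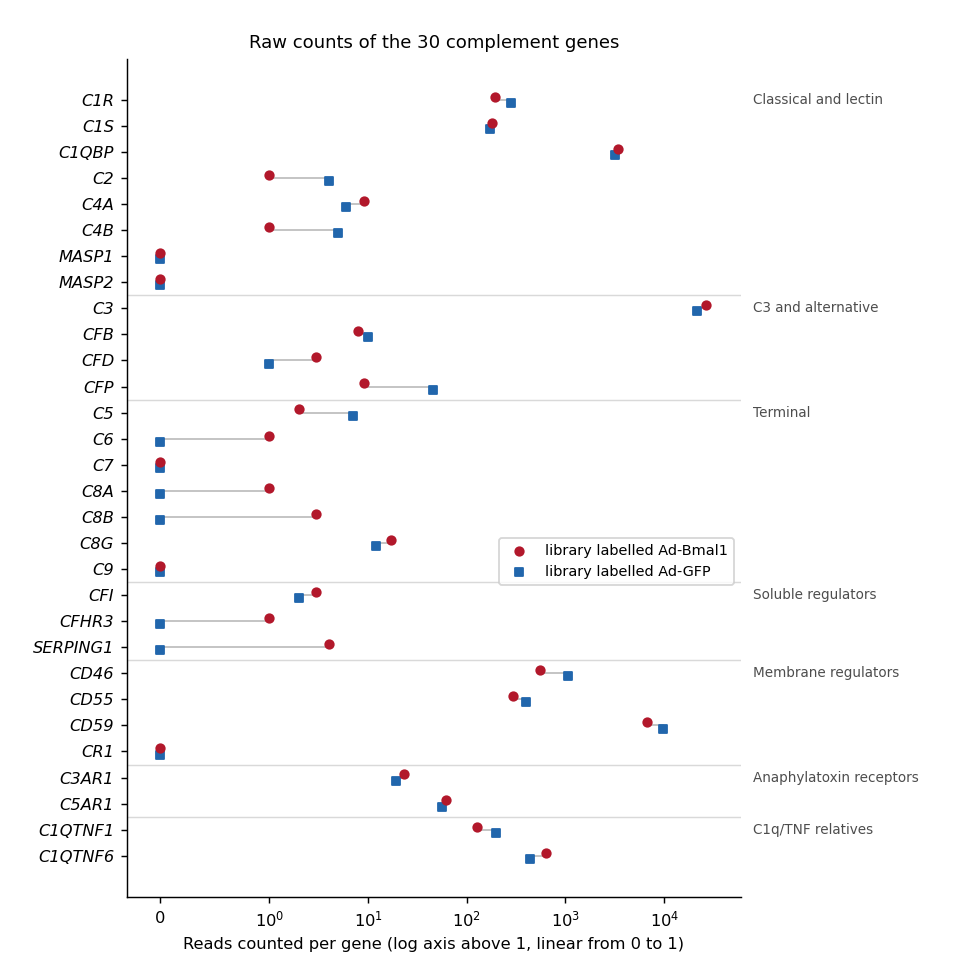
Reads counted for each of the 30 complement genes in the library labelled Ad-Bmal1 (circles) and the library labelled Ad-GFP (squares), ordered by role, on an axis that is logarithmic above 1. C3 stood highest with 26721 counts in the library labelled Ad-Bmal1 and 21660 in the library labelled Ad-GFP, and MASP1, MASP2, C7, C9 and CR1 were at 0 in both libraries.

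In the classical and lectin branch, the proteases C1R and C1S were both present and differed from each other. C1R, the protease that activates C1s, had 192 counts in the library labelled Ad-Bmal1 and 280 in the library labelled Ad-GFP, a ratio of 0.702 (0.581 to 0.846). C1S, the protease that cleaves C4 and C2, had 179 counts in the library labelled Ad-Bmal1 and 172 in the library labelled Ad-GFP, a ratio of 1.065 (0.859 to 1.32). C1R counts were thus 1.07 times C1S counts within the library labelled Ad-Bmal1 and 1.63 times within the library labelled Ad-GFP. The ratio of these was 0.659 (0.499 to 0.870), for a pair chosen after the values were seen. The genes lie close together on chromosome 12 (C1R at 7080199 to 7092607, C1S at 6988259 to 7071032). C1R overlaps on its strand with C1RL, a C1r-like protease gene with 179 counts in the library labelled Ad-Bmal1 and 225 in the library labelled Ad-GFP (0.814, 0.665 to 0.995), and C1S overlaps EMG1 and LPCAT3, whose ratios were 1.08 and 1.08. Since the strand setting of the counting is not given, reads of such overlaps cannot be assigned with certainty.

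The substrates of those proteases were scarce. C2, the protease subunit of the classical convertase, had 1 count in the library labelled Ad-Bmal1 and 4 in the library labelled Ad-GFP. C4A and C4B, near-identical genes for the C4 protein, had 9 counts and 1 count in the library labelled Ad-Bmal1, against 6 and 5 in the library labelled Ad-GFP. Reads can be split between such copies, and their summed counts, 10 in the library labelled Ad-Bmal1 and 11 in the library labelled Ad-GFP, had a ratio of 0.930 (0.354 to 2.41). MASP1 and MASP2, the lectin pathway proteases, were at 0 in both libraries, which allows up to 0.151 CPM in the library labelled Ad-Bmal1 and 0.148 CPM in the library labelled Ad-GFP.

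C1QBP encodes a mainly mitochondrial protein that was first found as a binder of C1q. It had 3431 counts in the library labelled Ad-Bmal1 and 3210 in the library labelled Ad-GFP, a ratio of 1.09 (1.04 to 1.15). The counting interval lay above 1, yet 33.0% of the 5658 genes with at least 1000 counts over both libraries had a ratio as high or higher. It overlaps DHX33 on its strand and RPAIN on the other, with ratios of 1.085 and 0.876.

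C3, the central component on which all pathways converge, was the most abundant complement gene. It had 26721 counts in the library labelled Ad-Bmal1 and 21660 in the library labelled Ad-GFP, a ratio of 1.26 (1.24 to 1.285, ENSG00000125730 at chromosome 19, 6677704 to 6730562). Among the 5658 abundant genes 10.7% had a ratio as high or higher. C3 held 68.4% of all counts of the 30 genes in the library labelled Ad-Bmal1 (95% Clopper-Pearson interval 67.97 to 68.9) and 58.2% in the library labelled Ad-GFP (57.7 to 58.7). GPR108, which overlaps C3 on the same strand, had 1319 counts in the library labelled Ad-Bmal1 and 1404 in the library labelled Ad-GFP, a ratio of 0.961.

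The other alternative pathway genes were near or under the detection level. CFP, which encodes properdin, the stabiliser of the alternative convertase, had 9 counts in the library labelled Ad-Bmal1 and 45 in the library labelled Ad-GFP, a ratio of 0.205 (0.0880 to 0.424, ENSG00000126759 at chromosome X, 47623172 to 47630305). Of all measured genes 0.068% had a ratio as low, but the counts of CFP were few and its interval was wide. CFP reached 1 CPM through the library labelled Ad-GFP alone. At its count in the library labelled Ad-Bmal1 it could be measured only by being higher in the other. Its place among the 12 and its share among all measured genes both carry that condition, so neither is support for a difference. CFB, which encodes the protease factor B, had 8 counts in the library labelled Ad-Bmal1 and 10 in the library labelled Ad-GFP (0.819, 0.281 to 2.30), and CFD, the adipocyte-rich protease factor D, had 3 counts in the library labelled Ad-Bmal1 and 1 in the library labelled Ad-GFP. The 4 adipocyte markers summed to 0 counts in the library labelled Ad-Bmal1 and 1 in the library labelled Ad-GFP.

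**Figure D2:**
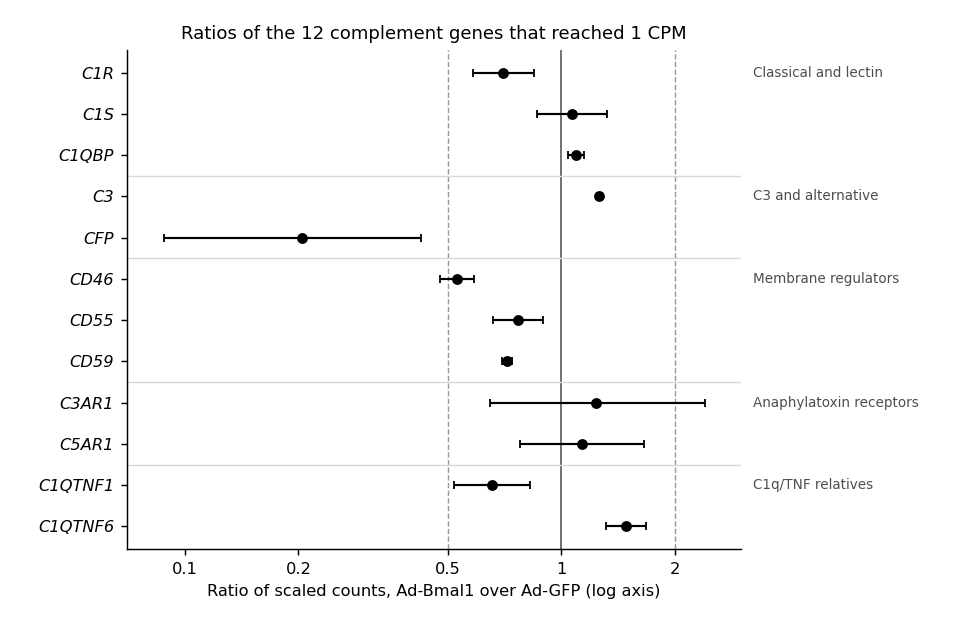
Ratio of scaled counts (Ad-Bmal1 label over Ad-GFP label) for the 12 complement genes that reached 1 CPM, on a log axis, with bars for the 95% counting interval and dashed lines at 2-fold. CFP lay at 0.205, CD46, CD55 and CD59 lay between 0.528 and 0.767, and C3 and C1QTNF6 lay at 1.26 and 1.49.

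The membrane regulators had lower counts in the library labelled Ad-Bmal1 for each of the 3 genes detected, although none reached 2-fold. CD46, the membrane cofactor for cleavage of C3b and C4b by factor I and also an entry receptor for measles virus and some adenoviruses, had 551 counts in the library labelled Ad-Bmal1 and 1067 in the library labelled Ad-GFP. Its ratio was 0.528 (0.476 to 0.586, ENSG00000117335 at chromosome 1, 207752057 to 207795513). Of the 5658 abundant genes 0.389% had a ratio as low. No read was counted for its pseudogene copy CD46P1 in either library.

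CD59, which blocks the last step of the membrane attack complex and is held in the membrane by a lipid (GPI) anchor, had 6762 counts in the library labelled Ad-Bmal1 and 9641 in the library labelled Ad-GFP. The ratio was 0.718 (0.696 to 0.740, ENSG00000085063 at chromosome 11, 33703010 to 33736491), and 2.86% of the abundant genes had a ratio as low. CD55, the GPI-anchored decay accelerator of the convertases, had 296 counts in the library labelled Ad-Bmal1 and 395 in the library labelled Ad-GFP, a ratio of 0.767 (0.657 to 0.894, ENSG00000196352 at chromosome 1, 207321376 to 207386804). Among all measured genes 12.8% had a ratio as low as that of CD55. CR1, the complement receptor known mainly from blood cells, was at 0 in both libraries.

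The 3 detected membrane regulators together had 7609 counts in the library labelled Ad-Bmal1 and 11103 in the library labelled Ad-GFP, a ratio of 0.701 (0.681 to 0.722). Most of these counts were of CD59 (6762 and 9641), so the summed ratio and its interval mainly restate those of CD59. CD46 was also lower relative to CD59, in pairs chosen after the values were seen. The ratio of CD46 to CD59 counts was 0.0815 within the library labelled Ad-Bmal1 and 0.111 within the library labelled Ad-GFP, which differed by a factor of 0.736 (0.661 to 0.820). CD55 and CD59 kept nearly the same proportion, with a factor of 1.07 (0.916 to 1.25). CD46 and CD55 both lie in the cluster of complement regulator genes on chromosome 1, and the measured neighbour of CD55 within 250 kb, PFKFB2, had a ratio of 1.09 (0.927 to 1.27). Over all 12 genes, 84 distinct measured neighbours lay within 250 kb, C1R and C1S among them as neighbours of each other. Of the 84, 0 met the 2-fold rule, against 2.86% of all measured genes.

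C3 and the membrane regulators were also set against each other within each library, a comparison into which no scaling enters. These pairs were chosen after the values were seen. C3 had a ratio above 1 and CD46, CD55 and CD59 had ratios below 1. The factors therefore had to exceed 1, and they restate those ratios without adding support. C3 counts were 3.51 times the summed counts of CD46, CD55 and CD59 in the library labelled Ad-Bmal1 and 1.95 times in the library labelled Ad-GFP. These differed by a factor of 1.80 (Woolf interval 1.74 to 1.86). Taken singly, the factor was 2.39 (2.15 to 2.65) against CD46, 1.76 (1.70 to 1.82) against CD59 and 1.65 (1.41 to 1.92) against CD55. The intervals hold counting error alone, and a spread between cultures could not be measured.

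**Figure D3:**
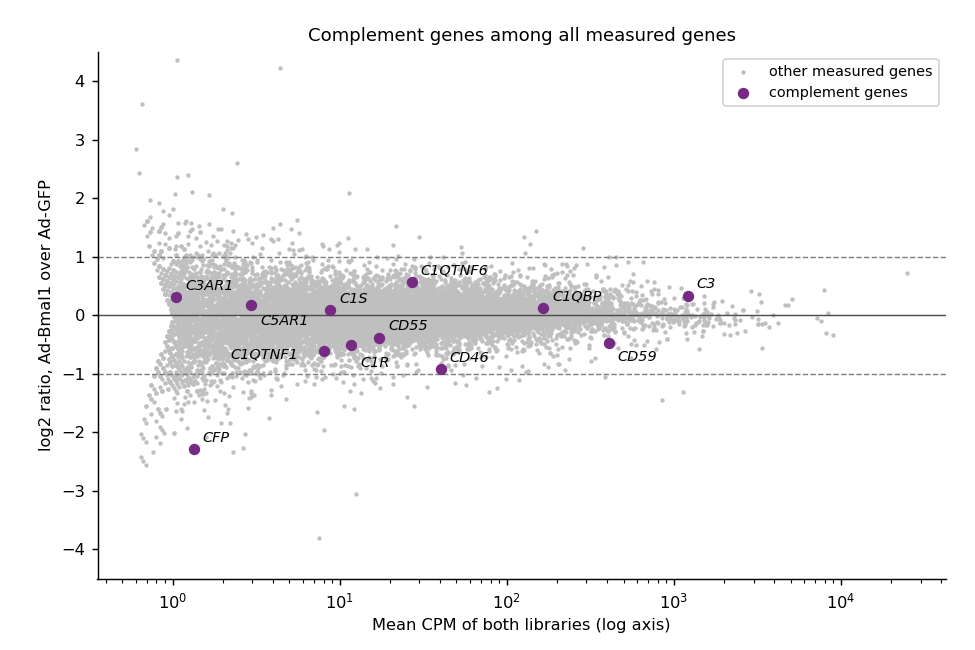
Each point is a gene that reached 1 CPM, by its mean CPM over both libraries (log axis) and its log2 ratio (Ad-Bmal1 label over Ad-GFP label), and dashed lines stand at 2-fold and 1 gene lay outside the plotted range. CFP lay below the lower line at -2.29, CD46 close above it at -0.92, and the other complement genes lay within the cloud of measured genes.

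The terminal components and soluble regulators were present as traces. C8G, which encodes the gamma chain of C8, had 17 counts in the library labelled Ad-Bmal1 and 12 in the library labelled Ad-GFP (1.45, 0.652 to 3.33). C5, the source of the C5a fragment, had 2 counts in the library labelled Ad-Bmal1 and 7 in the library labelled Ad-GFP (0.292, 0.0296 to 1.535). C7 and C9 were at 0 in both libraries. Summed over the 7 terminal genes there were 24 counts in the library labelled Ad-Bmal1 and 19 in the library labelled Ad-GFP, a ratio of 1.29 (0.679 to 2.50).

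Reads of 5 complement genes were found in the library labelled Ad-Bmal1 alone. SERPING1, the inhibitor of C1r, C1s and the MASP proteases, had 4 counts there, C8B had 3, and C6, C8A and CFHR3 had 1 each, while all were at 0 in the library labelled Ad-GFP. The reverse was seen for 0 genes. Over all genes, 22827 had a count in 1 or both libraries. Of these, 20780 had one in the library labelled Ad-Bmal1 and 20709 in the library labelled Ad-GFP. Reads in 1 library alone thus occurred among all genes in both directions, but their share among genes with equally few counts was not worked out. With 4 counts or fewer each, the 5 complement genes are not read as a difference. CFI, the protease that inactivates C3b with CD46 as a cofactor, had 3 counts in the library labelled Ad-Bmal1 and 2 in the library labelled Ad-GFP. The counts of these complement genes are at or near the floor of 3, and no fold is given for them. Other low genes had fewer counts in the library labelled Ad-Bmal1, among them C2, C4B, C5 and CFB. All 18 genes under 1 CPM in both libraries summed to 54 counts in the library labelled Ad-Bmal1 and 47 in the library labelled Ad-GFP, a ratio of 1.18 (0.780 to 1.78).

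The liver is the main source of many of these components, so hepatocyte markers were read beside them. The 8 hepatocyte markers, of which 2 reached 1 CPM, summed to 249 counts in the library labelled Ad-Bmal1 and 38 in the library labelled Ad-GFP (6.71, 4.75 to 9.70). More counts in the library labelled Ad-Bmal1 were found for 6 of the 8, and for 6016 of all 13231 measured genes. ALB, the albumin gene, had 165 counts in the library labelled Ad-Bmal1 and 9 in the library labelled Ad-GFP. It gave most of the sum in the library labelled Ad-Bmal1 and reached 1 CPM through that library alone. The ratio of the sums therefore rests mainly on 1 gene. APOA1 had 15 and TTR had 9 in the library labelled Ad-Bmal1, and both were at 0 in the library labelled Ad-GFP. FGB had 21 in each library, and CYP3A4 had 1 in the library labelled Ad-Bmal1 and 5 in the library labelled Ad-GFP. Their part in the traces of complement genes was not tested.

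**Figure D4:**
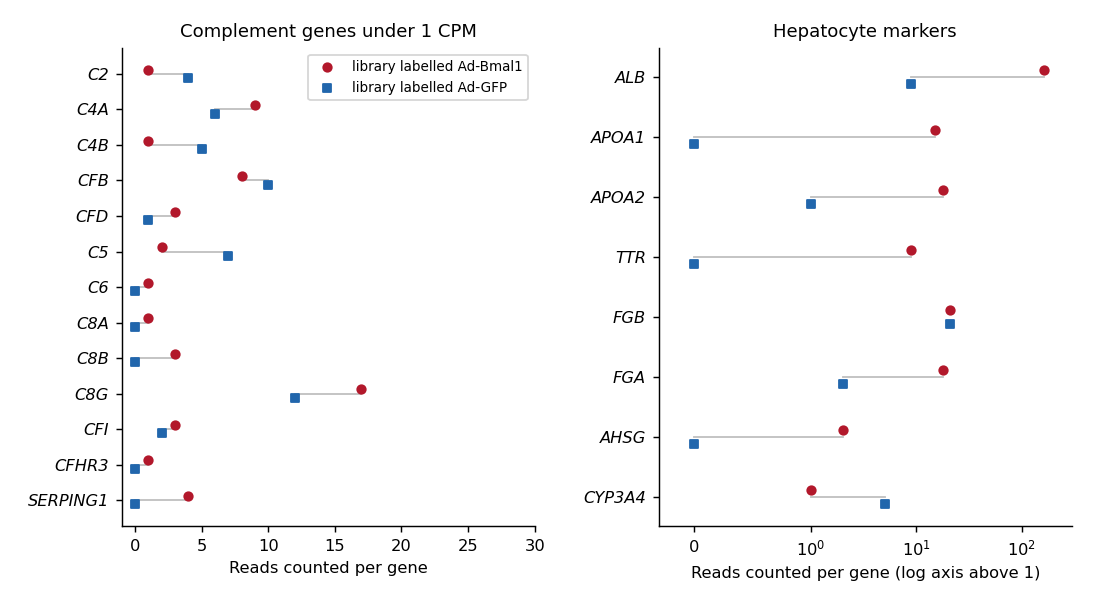
Reads counted for the 13 complement genes with a count that stayed under 1 CPM in both libraries (left, linear axis) and for 8 hepatocyte markers (right, axis logarithmic above 1), with circles for the library labelled Ad-Bmal1 and squares for the library labelled Ad-GFP. No complement gene on the left passed 17 counts, and ALB on the right had 165 counts in the library labelled Ad-Bmal1 and 9 in the library labelled Ad-GFP.

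The receptors for the anaphylatoxins, the small fragments released from C3 and C5, were scarce and did not differ beyond counting error. C5AR1, the C5a receptor, had 62 counts in the library labelled Ad-Bmal1 and 56 in the library labelled Ad-GFP (1.13, 0.777 to 1.66). C3AR1, the C3a receptor, had 23 counts in the library labelled Ad-Bmal1 and 19 in the library labelled Ad-GFP (1.24, 0.645 to 2.405). It reached 1 CPM through the library labelled Ad-Bmal1 alone.

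These receptors and CFP are known mainly from myeloid cells, so markers of such cells were read beside them. Of 10 monocyte and macrophage markers PTPRC, the pan-leukocyte CD45 gene, CD68, AIF1 and CD163 were at 0 in both libraries, CD14 had 2 counts in each, and all 6 neutrophil markers were at 0. The list summed to 485 counts in the library labelled Ad-Bmal1 and 704 in the library labelled Ad-GFP. Nearly all came from CSF1R, with 407 counts in the library labelled Ad-Bmal1 and 433 in the library labelled Ad-GFP (0.962, 0.838 to 1.10), and from LAPTM5, a lysosomal membrane protein gene, with 65 counts in the library labelled Ad-Bmal1 and 258 in the library labelled Ad-GFP (0.258, 0.193 to 0.340). Of the 2 measured markers of this list 1, LAPTM5, met the 2-fold rule, against 2.86% of all measured genes. FCER1G had 10 counts in each library. CFP reached 1 CPM through the library labelled Ad-GFP alone, so its ratio adds no support to that of LAPTM5. Any link between CFP and LAPTM5 was not tested. Endothelial markers, 5 genes, summed to 12 counts in the library labelled Ad-Bmal1 and 31 in the library labelled Ad-GFP, most of them from TIE1, with 7 in the library labelled Ad-Bmal1 and 28 in the library labelled Ad-GFP. The 6 fibroblast markers summed to 1989 in the library labelled Ad-Bmal1 and 1606 in the library labelled Ad-GFP. Most of these came from the collagen gene COL1A1, with 1681 in the library labelled Ad-Bmal1 and 1285 in the library labelled Ad-GFP, while DCN, the decorin gene, went the other way, with 91 in the library labelled Ad-Bmal1 and 130 in the library labelled Ad-GFP (0.716, 0.542 to 0.9435).

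The C1q/TNF relatives, secreted proteins that share a globular domain with C1q, differed in opposite directions. C1QTNF6, whose product restrains the alternative pathway in mice, had 639 counts in the library labelled Ad-Bmal1 and 440 in the library labelled Ad-GFP, a ratio of 1.49 (1.31 to 1.68, ENSG00000133466 at chromosome 22, 37180167 to 37199385). It was the highest ratio among the 12. Of all measured genes 5.79% had a ratio as high, and of the 5658 abundant genes, to which C1QTNF6 belongs, 2.65% did. C1QTNF1, a secreted factor known from adipose tissue, had 126 counts in the library labelled Ad-Bmal1 and 197 in the library labelled Ad-GFP, a ratio of 0.654 (0.519 to 0.823, ENSG00000173918 at chromosome 17, 79022814 to 79049788). Of all measured genes 5.82% had a ratio as low. C1QTNF1 counts were 0.197 times C1QTNF6 counts in the library labelled Ad-Bmal1 and 0.448 times in the library labelled Ad-GFP, a factor of 0.440 (0.3415 to 0.568). This pair was chosen after the values were seen, and its factor restates the opposite directions above.

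Levels of different genes were compared as CPM per kilobase of the longest annotated transcript. In the library labelled Ad-Bmal1 the order was C3 (256), C1QBP (148), CD59 (44.7), C1QTNF6 (11.0), CD46 (8.25), CD55 (5.17), C1R (3.64), C1S (2.94), C1QTNF1 (2.05), C5AR1 (1.35), C3AR1 (0.556) and CFP (0.265). In the library labelled Ad-GFP it was C3 (203), C1QBP (135), CD59 (62.3), CD46 (15.6), C1QTNF6 (7.40), CD55 (6.74), C1R (5.19), C1QTNF1 (3.135), C1S (2.76), CFP (1.30), C5AR1 (1.195) and C3AR1 (0.449). CD46 and C1QTNF6 changed places, as did C1S and C1QTNF1, and CFP was last in the library labelled Ad-Bmal1 and above C5AR1 and C3AR1 in the library labelled Ad-GFP. With the union of annotated exons as the length, CFP was last in both libraries. With 1 library per group the spread of these levels between cultures is unknown. The first 3 places were the same in both libraries and also when the union of annotated exons was used as the length.

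Other complement genes, a list of 34 that holds the recognition molecules and further regulators, had 9 measured genes. By the 2-fold rule 0 were higher and 0 lower, against 1.13% and 1.74% of all measured genes, and the median log2 ratio was -0.04. Intervals lay above 1 for 3 of the 9, against 23.8% of all measured genes, and below 1 for 4, against 21.6%. CLU, which encodes clusterin, a fluid-phase inhibitor of the membrane attack complex, had 1073 counts in the library labelled Ad-Bmal1 and 846 in the library labelled Ad-GFP (1.30, 1.185 to 1.42). PTX3, a pentraxin that binds C1q, had 322 counts in the library labelled Ad-Bmal1 and 318 in the library labelled Ad-GFP (1.04, 0.885 to 1.21), and ITGB2, the shared beta chain of complement receptors on leukocytes, had 164 in the library labelled Ad-Bmal1 and 246 in the library labelled Ad-GFP (0.682, 0.556 to 0.8345). Among genes chosen after their values were seen, the collectins went in opposite directions. COLEC10 had 143 counts in the library labelled Ad-Bmal1 and 266 in the library labelled Ad-GFP (0.550, 0.446 to 0.677), and COLEC12 had 56 in the library labelled Ad-Bmal1 and 31 in the library labelled Ad-GFP (1.85, 1.17 to 2.97). SUSD4, a membrane protein gene with complement control repeats, had 198 counts in the library labelled Ad-Bmal1 and 154 in the library labelled Ad-GFP (1.32, 1.06 to 1.635). The C1q chains C1QA, C1QB and C1QC were at 0 in both libraries, and so were the lectin pathway recognition genes MBL2, FCN1 and FCN2. Other recognition genes of that pathway were not all at 0. Besides COLEC10 above, FCN3 had 3 counts in the library labelled Ad-Bmal1 and 2 in the library labelled Ad-GFP, and COLEC11 had 2 and 0.

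The 25 listed genes of that kind under 1 CPM in both libraries summed to 32 counts in the library labelled Ad-Bmal1 and 13 in the library labelled Ad-GFP (2.52, 1.29 to 5.23). VTN, the liver-made inhibitor vitronectin, gave 15 of these in the library labelled Ad-Bmal1 and 2 in the library labelled Ad-GFP, and it too was chosen after its values were seen.

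A list of 20 genes of the signalling that drives complement transcription in other cells had 17 measured members. It holds cytokines, receptors, kinases, transcription factors and the feedback inhibitor SOCS3. By the 2-fold rule 0 were higher and 0 lower, against 1.13% and 1.74% of all measured genes. Intervals lay above 1 for 3 of the 17, against 23.8% of all measured genes, and below 1 for 6, against 21.6%, and the median log2 ratio was 0.00147. JAK1, a kinase of cytokine receptors, had 7145 counts in the library labelled Ad-Bmal1 and 7026 in the library labelled Ad-GFP (1.04, 1.01 to 1.08), and IL6, an acute-phase cytokine, had 5056 in the library labelled Ad-Bmal1 and 4979 in the library labelled Ad-GFP (1.04, 0.999 to 1.08).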

How the data were processed

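PolyA+ RNA of 2 libraries, 1 per group, was sequenced in paired reads, per the labels' protocols. The authors deposited whole-number counts for each gene, listed by Ensembl ID and not normalized. The submitters' processing notes name HISAT2 and the build GRCh38 (hg38). How reads were counted, on which strand and with which annotation is not stated in the sources used here. No column of per-sample values was left unused.

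TMM factors from edgeR 4.0.16 (R 4.3.3) scaled both totals, and Python 3.11.15 with scipy 1.17.1 did the rest. With 1 library per group no test between conditions is possible, so differences are ratios with exact conditional binomial (Clopper-Pearson) 95% intervals. Intervals and floors (3 counts per library for a count of 0) cover counting error alone. PCR copies of a molecule may be counted more than once, so the intervals may be too narrow even for counting error. Ratios between genes within a library carry Woolf 95% intervals, and their pairs were chosen after the values were seen. The calculation was tested on simulated counts. A name table gave symbols for 57532 of 58302 identifiers, GENCODE v29 gave positions and lengths, and RefSeq gave promoters.

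Genes and lists were chosen with earlier results of these data known. All 30 complement genes were to be named, and of other lists those meeting the 2-fold rule and the 3 with the highest mean CPM; some of these are not reported here. Alternatives were other scalings (one from DESeq2 1.42.0), filters, folds, a prior count, protein-coding genes alone, union exon lengths and removal of a length trend.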

Additional observations from a re-analysis of the deposited data

How the results depend on the processing

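No paired analysis was possible because each group has 1 library, and for the same reason no library could be left out. The median over all measured genes moved by under 0.1 on the log2 scale with every scaling. The number of complement genes measured was 25 without a filter and 7 at 10 CPM, against 12. The number lower by the size rule was 0 at 10 CPM, which removes CFP, and 3 at 1.5-fold (CFP, CD46 and C1QTNF1, where 4.9% of all measured genes were lower by that rule), against 1. The median log2 ratio of the measured complement genes was -0.38 at 10 CPM, against -0.15, over fewer genes. Ratios of the 12 genes were recomputed 72 times, and 68 stayed within the counting interval. The other 4 were C3 under total counts (1.23) and, with the length trend removed, C3 (1.21), C1QBP (1.16) and CD59 (0.636). No ratio of the 12 crossed 1 under these alternatives. Depth limits the 18 genes under 1 CPM, where gaps of a few reads cannot be read as differences.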

Other observations

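CD55 and CD59 depend on a GPI anchor, and the genes that build or attach that anchor were read as a list of 27, of which 25 were measured. By the 2-fold rule 0 were higher and 0 lower, against 1.13% and 1.74% of all measured genes. Intervals lay above 1 for 2 of the 25, against 23.8% of all measured genes, and below 1 for 9, against 21.6%, and the median log2 ratio was -0.10, beside 0.00315 for all measured genes. PIGT, a subunit of the transamidase that attaches the anchor, had 3416 counts in the library labelled Ad-Bmal1 and 4078 in the library labelled Ad-GFP (0.857, 0.819 to 0.897). GPAA1, another subunit, had 3416 counts in the library labelled Ad-Bmal1 and 3754 in the library labelled Ad-GFP (0.931, 0.889 to 0.9755), and PIGS, a further one, had 1835 in the library labelled Ad-Bmal1 and 1867 in the library labelled Ad-GFP (1.01, 0.942 to 1.07).

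Other genes with a C1q domain gave 4 measured of 20 listed, and 0 met the 2-fold rule, against 2.86% of all measured genes. C1QL1, a C1q-like gene known from the nervous system, was abundant, with 3056 counts in the library labelled Ad-Bmal1 and 3438 in the library labelled Ad-GFP (0.9095, 0.866 to 0.955). EMILIN2, a matrix glycoprotein gene, had 161 counts in the library labelled Ad-Bmal1 and 109 in the library labelled Ad-GFP (1.51, 1.18 to 1.945), and C1QL4, another C1q-like gene, had 58 in the library labelled Ad-Bmal1 and 77 in the library labelled Ad-GFP (0.771, 0.5385 to 1.10).

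Among 12 genes of the contact, clotting and fibrinolytic proteases, which share the inhibitor SERPING1 or the plasma cascades with complement, 7 were measured and 1 met the 2-fold rule, against 2.86% of all measured genes. PLAT, the tissue plasminogen activator, had 829 counts in the library labelled Ad-Bmal1 and 1792 in the library labelled Ad-GFP (0.473, 0.435 to 0.514). PLAU, the urokinase gene, had 6935 counts in the library labelled Ad-Bmal1 and 7719 in the library labelled Ad-GFP (0.919, 0.890 to 0.950), and PROCR, the protein C receptor, had 1520 in the library labelled Ad-Bmal1 and 1445 in the library labelled Ad-GFP (1.08, 1.001 to 1.16). F3, tissue factor, had 1035 counts in the library labelled Ad-Bmal1 and 1081 in the library labelled Ad-GFP (0.980, 0.899 to 1.07).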
